A study of Mus musculus with 8 samples.

Results

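The genes described here are 9 genes that make haem: Alas1, Alas2, Slc25a38, Alad, Uros, Urod, Cpox, Ppox and Fech. They were chosen by name, as 9 of the 21532 protein-coding genes whose strand was known, and each was examined over its RefSeq interval on mouse build GRCm38 and 10 kb on each side. Peaks of phosphorylated RNA polymerase II came from CUT&Tag, in which an antibody brings a transposase to chromatin so that DNA beside the bound protein is cut and tagged. One antibody recognised the tail of the polymerase subunit Rpb1 carrying phosphate on serine 5 (Ser5P, a mark of polymerase near the start of transcription). The other recognised phosphate on serine 2 (Ser2P, a mark that builds up during elongation). The cells were MEL, a virus-transformed mouse erythroleukaemia line that resembles red cell precursors halted before maturation. Both lines compared carry dCas, a Cas9 without cutting activity. The genotype labels are dCAS control and Myrlin KD, the second being a knockdown of Myrlin, an RNA transcribed from an enhancer of Myb. No inducer of maturation is named in the labels, and the number of clones behind each line is not given in the sources used here. Each antibody was used on 2 libraries per line, giving 8 libraries in 4 groups.

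Haem is an iron-containing ring that haemoglobin and many mitochondrial enzymes need. Synthesis starts in the mitochondrion, where glycine and succinyl-CoA are joined, continues in the cytosol and returns to the mitochondrion, where iron is put into the finished ring. In maturing red cells the pathway is run at a very high rate, led by an erythroid form of the first enzyme, Alas2, while other tissues use Alas1. The erythroid factor GATA1 is known to act on Alas2 both at its promoter and at sites inside the gene. One step between Alad and Uros has no gene among those analysed here.

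The libraries differed in depth, read here as the most frequent local background of a peak list. Ser5P control libraries had 0.567 and 0.639 reads and Ser5P KD libraries 0.649 and 0.842. Ser2P control libraries had 0.78 and 0.439 reads and Ser2P KD libraries 1.12 and 1.03. Both KD libraries were thus deeper than both controls for each antibody, by a small margin for Ser5P. Lists held 20793 to 32125 peaks, the shortest and shallowest being Ser2P control 2. Median peak width was 381 to 497 bp in the controls and 478 to 533.5 bp in the KD libraries, where both KD medians exceeded both control medians for either antibody. The genes and flanks of the 9 held 20 to 33 peaks per library. Erythroid identity was checked on 10 marker genes. In all 4 Ser5P libraries, 8 of 10 had bases covered in the body window, beside 25.5% of all genes. A Ser5P promoter peak in all 4 libraries was found at 3 of 10, beside 36% of all genes, so promoters showed no excess. None of 5 lymphoid, 5 myeloid and 5 non-haematopoietic markers had a Ser5P promoter peak in any library, while 2 of 5 megakaryocyte and mast cell markers had one in all 4. In the body window, 2 of the 5 lymphoid markers (Cd3g and Cd79a), 1 myeloid (Csf1r) and 1 non-haematopoietic (Col1a1) had covered bases in all 4 Ser5P libraries. That window runs from 1 kb inside the 5′ end to 3 kb past the 3′ end. Its coverage may belong to neighbouring genes, which was not checked for the markers. Cd79a and Col1a1 had a Ser2P promoter peak in at least 1 library. The windows of markers of other lineages were thus not free of polymerase peaks, and the part of other lineages in the results below was not tested. In these bulk samples a change in how many cells carry polymerase at a site and a change in how much each cell carries cannot be told apart.

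A promoter peak was counted where the summit lay within 1 kb of the outer 5′ end of the gene. For Ser5P, 7 of the 9 genes had one in all 4 libraries, where the share over all genes was 36%. For Ser2P, 6 of 9 had one in all 4 libraries, where the share over all genes was 34.9%. The exceptions were Alas2, with no promoter peak in any library, Uros, whose first peak lay further inside the interval, and Urod, whose Ser2P promoter peak was present in the KD libraries alone. With every RefSeq start of a gene counted, a choice made after the data were seen, Uros joined the others and the counts became 8 of 9 for Ser5P (39.5% of all genes) and 7 of 9 for Ser2P (38.3%). No promoter of the 9 was marked by Ser5P in one line only, a pattern seen at 0.502% of genes for controls and 0.376% for KD (0.483 and 0.399% over all starts). For Ser2P over all starts, 0.293% of genes were marked in controls only and 1.09% in KD only, Urod being the one haem gene among them. The genes fell into groups by coverage of the body window, which is not the same as peaks deep inside a gene. Alas1, Cpox and Ppox had no peak base in the gene body of any of the 8 libraries, whereas Alas2, Alad, Uros, Urod and Slc25a38 had covered bases in the body window in all 4 libraries of both antibodies. The share of all genes with a body window peak in all 4 libraries was 25.5% for Ser5P and 26.4% for Ser2P. The body window ran from 1 kb inside the 5′ end to 3 kb past the 3′ end, and it therefore reached sites outside at least 3 of these genes. At Alad it met a peak of 333 bp just past the 3′ end in Ser2P KD 1. Urod had no peak inside the gene past its promoter, and its window met a site beyond the 3′ end. At Uros the window met part of the peak at the start region shared with Bccip. That peak gave all of the Uros coverage in the Ser5P KD libraries, 713 and 712 bp. The window of Slc25a38 met the start of the next gene, which gave all of its coverage in Ser2P control 2.

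**Figure D1:**
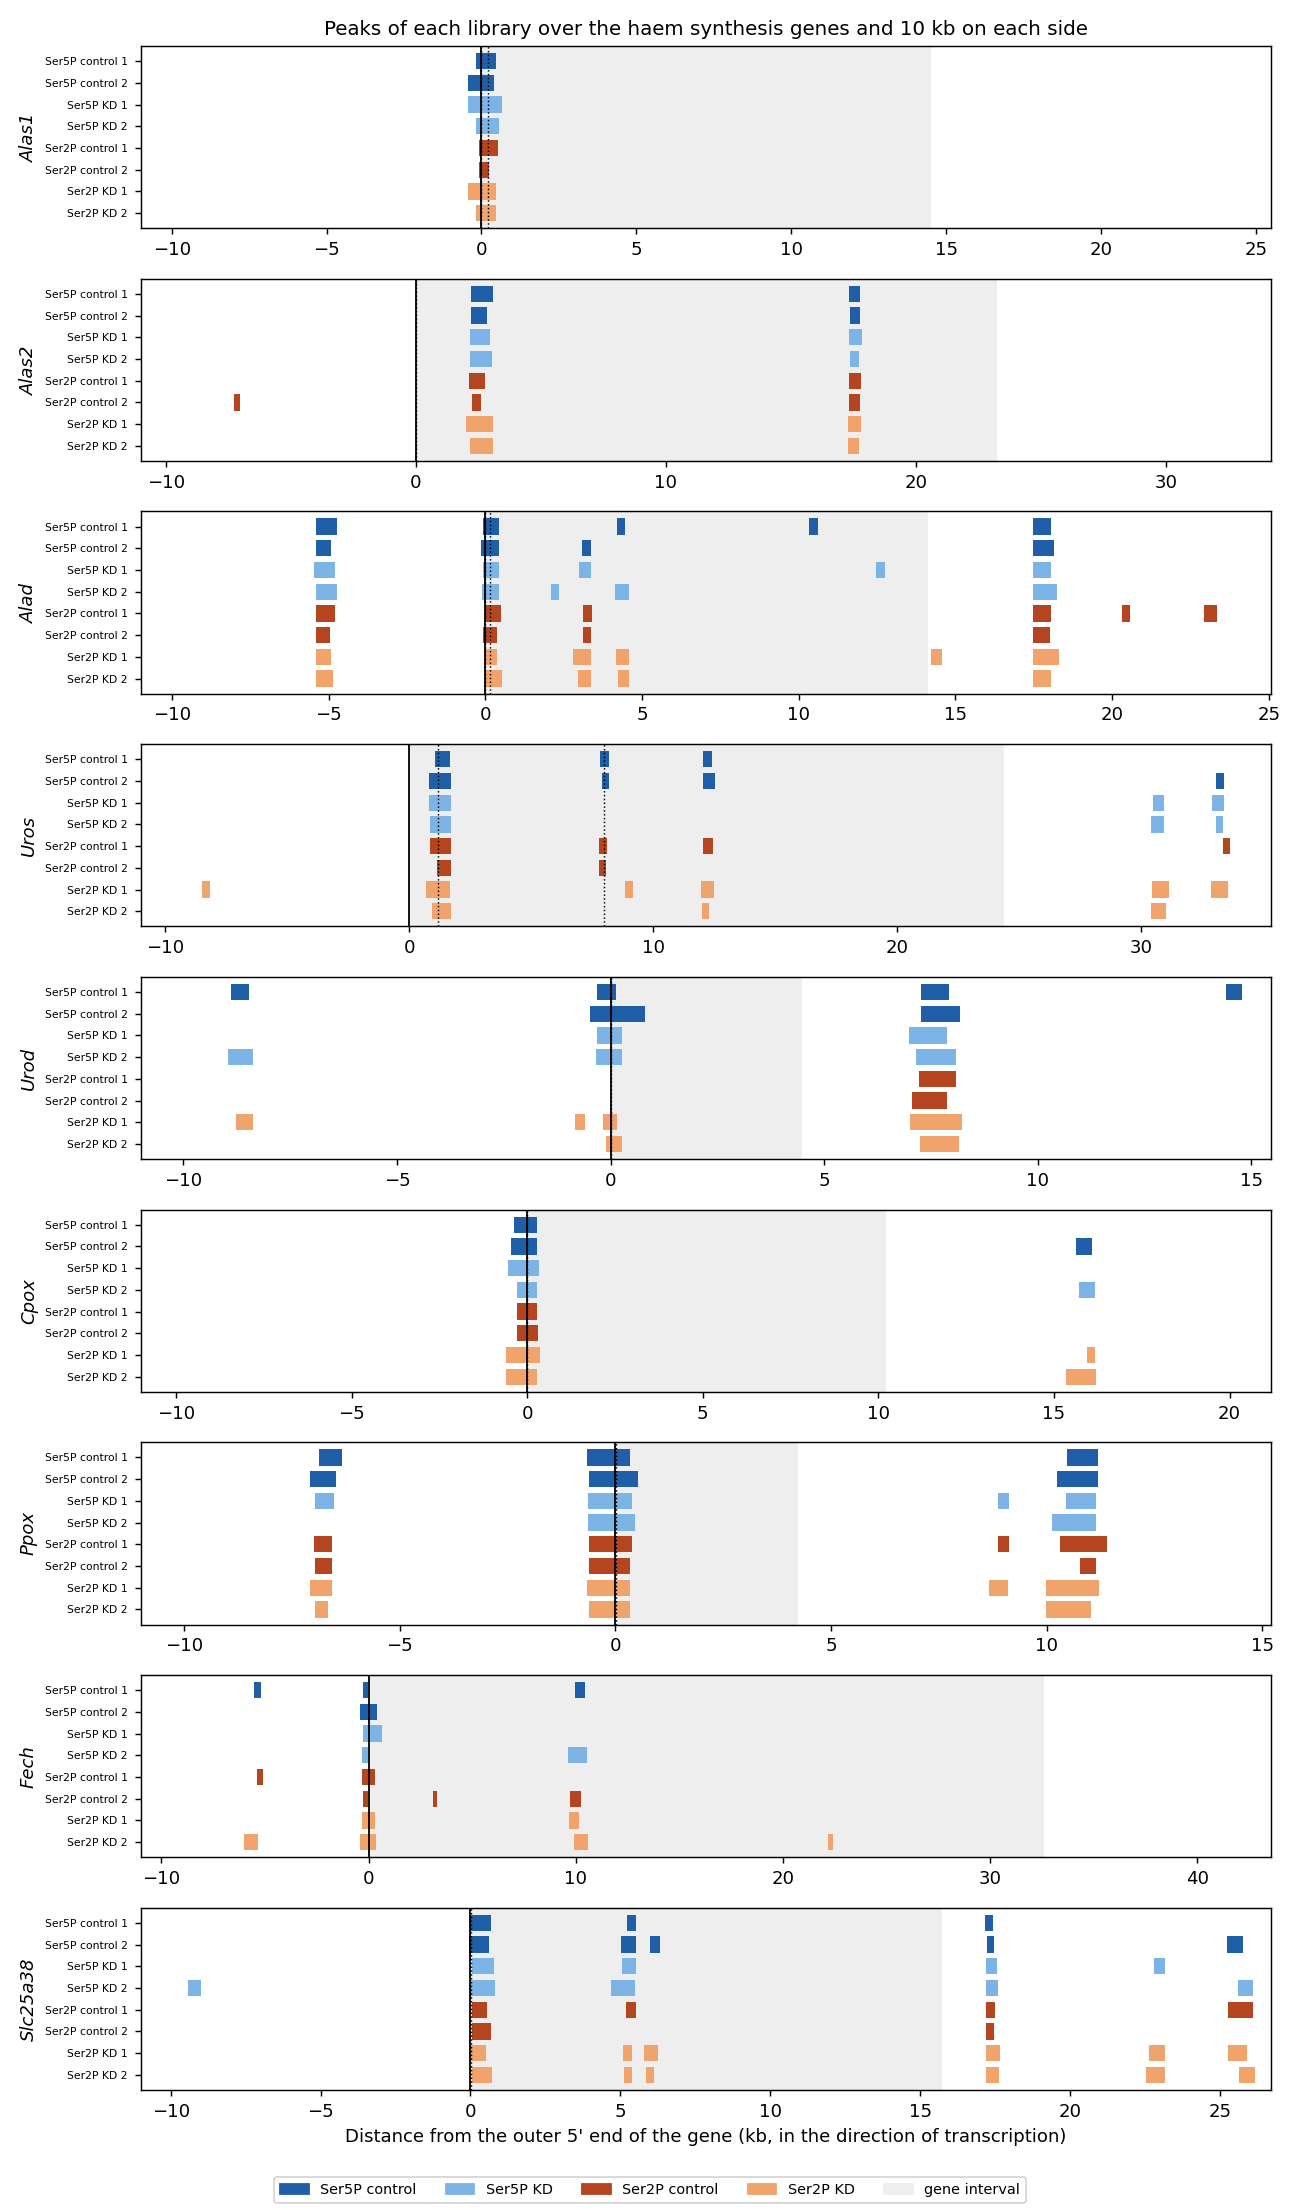
Peaks of the 8 libraries over each gene (grey) and 10 kb on each side, by distance in kb from the outer 5′ end in the direction of transcription. Solid lines mark the outer 5′ end, dotted lines the RefSeq starts and bars the peaks of one library. Alas1 shows a single peak at its start in every library, and Alas2 shows 2 sites inside the gene and none at the start.

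The first step has 2 enzymes, and their peak patterns were opposite. Alas1, the 5-aminolevulinate synthase used by all tissues, lies on chromosome 9 (chr9:106233455-106247954, minus strand). It had 1 peak per library and no other within 10 kb, with every summit at 0.09 kb inside the 5′ end. Promoter bases covered by peaks were 662 and 846 bp in the Ser5P controls and 1072 and 749 bp in the Ser5P KD libraries. For Ser2P they were 616 and 346 bp in control cells and 895 and 652 bp in KD cells. The values of the 2 lines overlapped for Ser5P, and for Ser2P both KD values exceeded both control values. Summit fold enrichment, which is the authors' own value for a peak over its local background and is used here only to describe peaks, was 7.99 to 9.34 for Ser5P and 6.05 to 8.01 for Ser2P.

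Alas2, the erythroid 5-aminolevulinate synthase, lies on the X chromosome (chrX:150547417-150570622, plus strand), inside the wider interval of Apex2 on the other strand. Its promoter window had 0 bp covered in each of the 8 libraries. Both antibodies instead marked the same pair of sites inside the gene in all 8 libraries, the proximal one merged over libraries at 2.0 to 3.09 kb (chrX:150549418-150550505) and the distal one at 17.29 to 17.86 kb (chrX:150564706-150565272). At the proximal site the summit pileup, the number of reads stacked at the summit, was 37 and 26 in the Ser5P controls and 24 and 30 in the Ser5P KD libraries. Ser2P pileups there were 68 and 39 in control cells and 67 and 62 in KD cells. These counts are not corrected for depth. Divided by the library's most frequent local background, Ser2P pileups were 87.2 and 88.8 in control cells and 59.8 and 60.3 in KD cells. On the same scale Ser5P pileups were 65.3 and 40.7 in control cells and 37.0 and 35.6 in KD cells. By p-value this peak stood among the top 3.8 to 7.96% of the Ser2P lists, and among the top 19.0 to 39.8% of the Ser5P lists. The distal site had summit pileups of 22 to 30 for Ser5P and 26 to 52 for Ser2P, with folds of 6.53 to 9.71 and 6.85 to 11.8. Exons and introns were not annotated in the gene table used, so these sites are placed by distance alone. The only other peak within 10 kb was 1 upstream peak in Ser2P control 2, with a summit pileup of 7 at 7.11 kb before the start.

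The 300 bases around each start, 250 before it and 50 after it, are shown for both synthases because one start carried a peak in every library and the other in none. They are RefSeq sequence of GRCm38.p6, of which 11 entries matched 8 of the 9 genes by symbol; Fech had no entry. Capitals mark GATA words (AGATAA, and its versions that begin with T, end with G or both), searched on both strands. Alas1 is read from chr9:106247905-106248204 on the minus strand and Alas2 from chrX:150547167-150547466 on the plus strand.
Alas1: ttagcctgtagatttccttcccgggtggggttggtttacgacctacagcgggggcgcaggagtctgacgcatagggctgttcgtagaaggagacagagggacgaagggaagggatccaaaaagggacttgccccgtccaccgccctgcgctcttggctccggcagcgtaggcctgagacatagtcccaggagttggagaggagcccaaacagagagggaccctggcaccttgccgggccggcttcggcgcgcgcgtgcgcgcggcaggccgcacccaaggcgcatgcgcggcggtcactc
Alas2: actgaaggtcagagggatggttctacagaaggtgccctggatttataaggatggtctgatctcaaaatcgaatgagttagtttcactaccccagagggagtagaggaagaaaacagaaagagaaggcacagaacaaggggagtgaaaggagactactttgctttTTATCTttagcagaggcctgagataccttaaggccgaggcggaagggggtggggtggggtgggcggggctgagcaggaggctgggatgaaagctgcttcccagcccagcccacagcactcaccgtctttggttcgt
The Alas1 stretch holds no GATA word and so no capitals. The Alas2 stretch holds 1, on the opposite strand and 86 bases before the start. Over all 21262 promoter entries, 26% hold a GATA word. A CACCC-box word (CCNCNCCC, either strand), held by 56.6% of entries, matched 4 times before the Alas2 start, the nearest to it 26 bases away and the other 3 overlapping in a row, and 2 times in the Alas1 stretch. Matching letters describe the sequence only.

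Slc25a38, the mitochondrial carrier that brings in glycine for the first step, lies on chromosome 9 (chr9:120110377-120126093, plus strand). Its promoter peak was present in all 8 libraries with summits 0.24 to 0.47 kb inside the 5′ end. Promoter coverage was 695 and 660 bp in the Ser5P controls, 733 and 811 bp in the Ser5P KD libraries, 508 and 619 bp in the Ser2P controls and 497 and 666 bp in the Ser2P KD libraries. All Ser5P values but one were above all Ser2P values. Ser5P folds reached 9.71 and 10.3 (control) against 7.63 and 6.25 (KD), among the top 5.49 to 16.9% of the lists. Scaled by each library's most frequent local background, Ser5P pileups came to 118.2 and 123.6 (control) against 90.9 and 68.9 (KD). For Ser5P, both KD libraries thus had lower folds and scaled pileups than both controls, but more covered bases. The cause was not tested. Ser2P folds overlapped between the lines, at 5.37 to 6.96. A second site at 4.68 to 5.53 kb was marked in all 4 Ser5P libraries, with summit pileups of 32 to 44, and in 3 of 4 Ser2P libraries, the missing one being Ser2P control 2. The peak with its summit at 17.26 to 17.43 kb in all 8 libraries sits at the start of Rpsa, a ribosomal protein gene whose 5′ end is 17.39 kb from that of Slc25a38, and it lies within the body window of Slc25a38. Body coverage of Slc25a38 therefore counts a neighbour's promoter. The promoter sequence of Slc25a38 holds 1 ETS word (CCGGAAG, either strand, found in 11.6% of entries) 46 bases before its start and no GATA word.

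Alad, which joins 2 aminolevulinate molecules into porphobilinogen, lies on chromosome 4 (chr4:62505984-62520063, minus strand). A promoter peak was found in every library and covered 539 and 572 bp in the Ser5P controls, 534 and 513 bp in the Ser5P KD libraries, 489 and 450 bp in the Ser2P controls, and 377 and 525 bp in the Ser2P KD libraries. The peak stood little above its surroundings, with folds of 3.61 to 4.28 for Ser5P and 2.9 to 4.53 for Ser2P. The local background that the authors' caller set around it was itself 15.6 to 15.9 times the usual background of the library for Ser5P and 11.8 to 13.0 times for Ser2P. Summit pileups were 36 to 50 for Ser5P and 17 to 49 for Ser2P. With only peaks of −log10 q of at least 5, the Alad promoter was no longer marked in all 4 Ser2P libraries, and 5 of 9 genes then were. A site inside Alad near 3.2 kb had Ser2P peaks in all 4 libraries, with summit pileups of 57, 31, 68 and 48, and Ser5P peaks in 2 of 4. In 3 of the 4 Ser2P libraries its summit pileup was above that of the promoter, and in the last the values were 48 at both. Its flanks carried peaks in all 8 libraries at the start of Hdhd3, 17.86 kb from the Alad 5′ end, and where Pole3 and 4933430I17Rik start back to back about 5 kb before it.

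**Figure D2:**
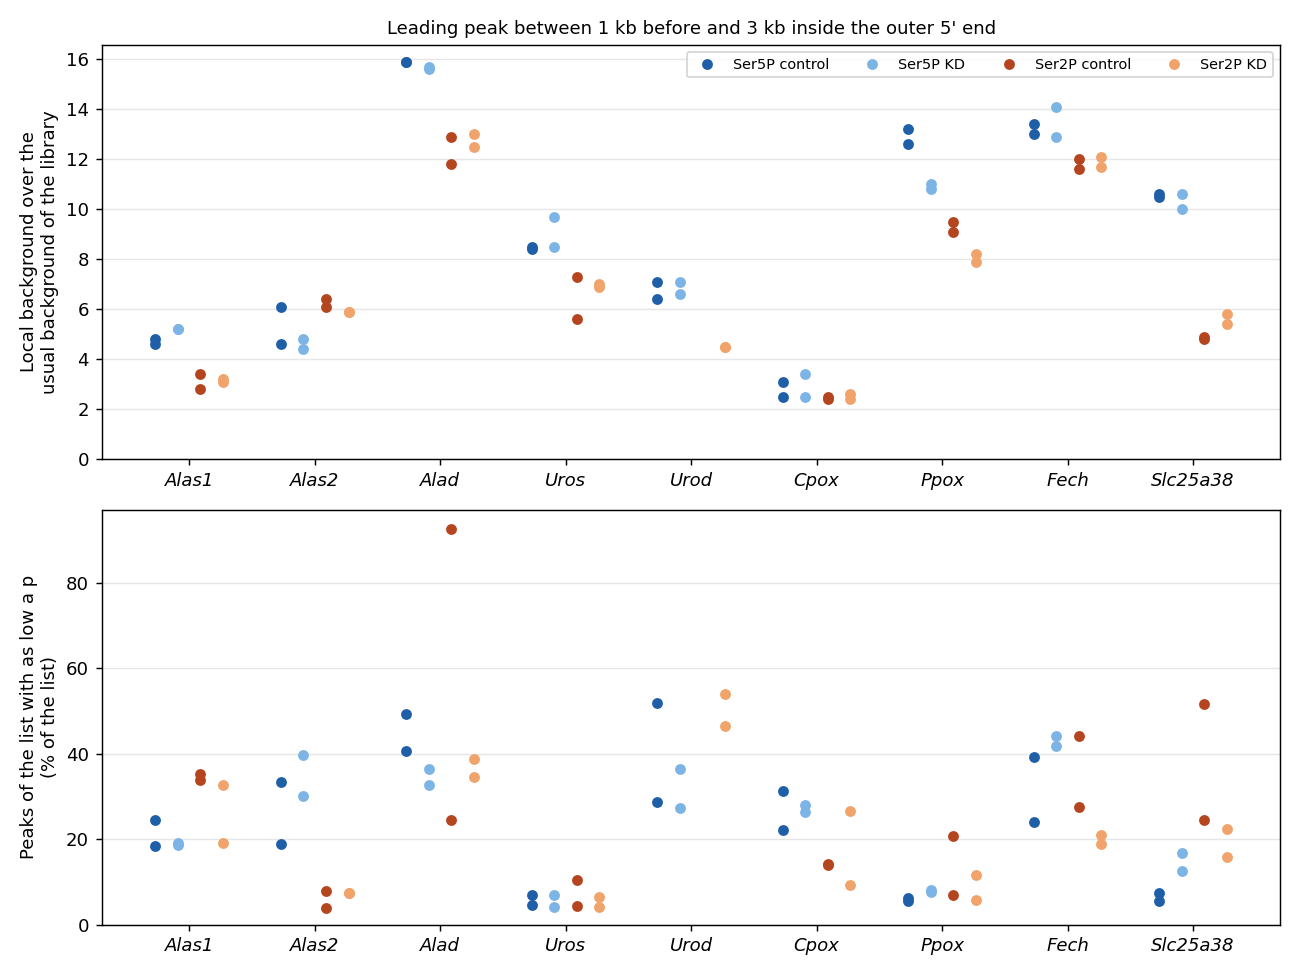
The leading peak between 1 kb before and 3 kb inside the outer 5′ end of each gene, 1 point per library. The upper panel gives the local background set by the authors' caller over the usual background of the library, and the lower panel the percentage of the list with as low a p. Alad sits highest in the upper panel for Ser5P, at 15.6 to 15.9, and the proximal Alas2 site sits under 8% of the list for Ser2P.

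Uros, uroporphyrinogen III synthase, which closes the ring, lies on chromosome 7 (chr7:133686142-133710467, minus strand). RefSeq gives it starts 1.17 and 7.97 kb inside the outer 5′ end. The upstream start had a peak in all 8 libraries with summits at 1.3 to 1.36 kb, and folds of 9.44 to 12.2 for Ser5P and 8.61 to 10.5 for Ser2P. Summit pileups there were 63 and 77 in the Ser5P controls, 82 and 76 in the Ser5P KD libraries, 69 and 34 in the Ser2P controls and 74 and 79 in the Ser2P KD libraries. Bccip starts on the other strand at 1.13 kb, so this peak belongs to a shared start region and cannot be given to Uros alone.

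The downstream start of Uros was marked in all 4 control libraries and in none of the 4 KD libraries. Summits lay at 7.82 to 8.15 kb. Summit pileups were 16 and 12 in the Ser5P controls, with folds of 4.57 and 3.51, and 25 and 16 in the Ser2P controls, with folds of 5.67 and 5.72. These are modest peaks: 66.8 and 91.3% of the Ser5P lists and 35.5 and 48.1% of the Ser2P lists had as low a p. The nearest KD peak was 1 Ser2P peak in KD 1 with its summit at 9.08 kb. A region marked in every control library of both antibodies and in no KD library is called control-only here. Over the genome 129 of 56005 merged regions, 0.23%, were so called, and 103, 0.184%, were KD-only in the same sense. This joint call was lost when peaks needed a −log10 q of at least 5 and when every list was cut to the same number of peaks, with the peak of Ser5P control 2 no longer in the list. The Ser2P call alone held under both. The site was singled out after its values were seen, so no test is attached to it. The joint call held after pileups were scaled to the shallowest library.

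The sequences at both Uros starts are shown because the upstream one was marked in all libraries and the downstream one in controls only. Both are on the minus strand, at chr7:133709246-133709545 and chr7:133702451-133702750, with capitals as above.
Uros upstream start: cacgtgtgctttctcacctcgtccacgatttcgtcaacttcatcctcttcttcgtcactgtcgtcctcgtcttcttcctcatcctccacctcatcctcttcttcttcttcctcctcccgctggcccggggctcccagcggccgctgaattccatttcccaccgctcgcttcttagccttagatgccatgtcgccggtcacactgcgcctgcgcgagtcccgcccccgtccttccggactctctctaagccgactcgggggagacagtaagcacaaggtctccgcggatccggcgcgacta
Uros downstream start: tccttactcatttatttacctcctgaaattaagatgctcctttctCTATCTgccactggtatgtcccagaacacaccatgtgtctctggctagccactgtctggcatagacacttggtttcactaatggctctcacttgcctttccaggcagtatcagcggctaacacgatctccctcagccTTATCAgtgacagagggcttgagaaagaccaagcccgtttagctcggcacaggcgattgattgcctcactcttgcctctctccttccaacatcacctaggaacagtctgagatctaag
The downstream stretch holds 2 GATA words, 205 and 68 bases before the start, and no CACCC-box or ETS word. The upstream stretch holds no GATA word, 1 CACCC-box word 32 bases before the start and 1 ETS word 21 bases before it.

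Further inside Uros, a site at 12.04 to 12.53 kb had Ser5P peaks in both controls (summit pileups 16 and 15) and in neither KD library, while Ser2P peaks there were present in control 1, KD 1 and KD 2 with summit pileups of 21, 21 and 19. The 2 antibodies thus differed at this site, and the Ser5P call was lost at a −log10 q of at least 5. Downstream of Uros, the start of Mmp21, a metalloproteinase gene with its 5′ end at 30.41 kb, carried peaks in all 4 KD libraries and in no control. Its summit pileups were 21 and 23 for Ser5P and 43 and 36 for Ser2P in the KD libraries, over local backgrounds 9.3 to 11.3 times the usual one. The Ser2P call at Mmp21 held at a −log10 q of at least 5, with equal numbers of peaks and after scaling to the shallowest Ser2P library. The Ser5P call was lost under the first and second of these, and the call joint to both antibodies under all 3. Uros body coverage for Ser5P came to 1376 and 1481 bp in control cells and 713 and 712 bp in KD cells, a difference of −2.72 percentage points of the window (limma, SE 0.3). It did not pass the genome-wide test over 9883 genes (limma adjusted p = 0.284). A fit with no filter takes in genes without a covered base in any library, whose lack of spread enters limma's shared estimate of spread. A pass there is therefore weak evidence. With no filter on genes without peaks, 21532 genes entered the fit and Uros passed (SE 0.55, limma adjusted p = 0.0152), as 1 of 173 genes lower in KD beside 277 higher. Under the other alternatives its limma adjusted p was 0.22 to 0.769.

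**Figure D3:**
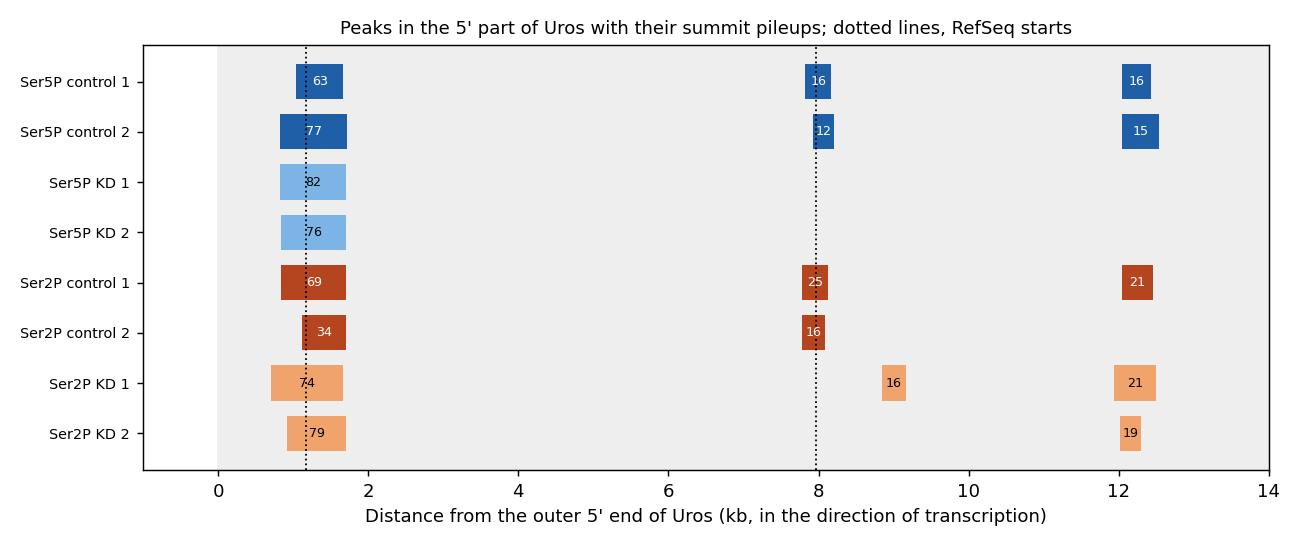
Peaks in the first 14 kb of Uros by library, by distance in kb from the outer 5′ end. Numbers on the bars are summit pileups and dotted lines are RefSeq starts. The 4 control libraries have a peak of pileup 12 to 25 at the second start and the KD libraries have none.

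Urod, uroporphyrinogen decarboxylase, lies on chromosome 4 (chr4:116989965-116994436, minus strand), and Hectd3 starts 0.86 kb upstream of it on the other strand. The Ser5P promoter peak was present in all 4 libraries, with 444 and 1291 bp covered in control cells and 584 and 607 bp in KD cells. Control 2 was the widest, spanning 0.49 kb before to 0.8 kb inside the 5′ end. The Ser2P promoter had 0 bp covered in both controls. KD cells had 567 and 369 bp, with summit pileups at the start of 25 and 22 and folds of 4.28 and 4.08. In Ser2P KD 1 a second peak with its summit at 0.78 kb before the 5′ end, close to the Hectd3 start, added to that coverage. Over all genes 1.01% had a Ser2P promoter peak in KD libraries only and 0.283% in controls only. The KD-only call at Urod held at a −log10 q of at least 5, with equal numbers of peaks and after scaling to the shallowest Ser2P library. In the genome-wide fit the Ser2P promoter coverage of Urod was 23.4 percentage points higher in KD (SE 5.27), which did not pass (limma adjusted p = 0.257). A strong site at 7.0 to 8.23 kb, past the Urod 3′ end and inside the interval of Zswim5, was marked in all 8 libraries with Ser5P folds of 8.77 to 12.9 and Ser2P folds of 7.42 to 8.55.

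Cpox, coproporphyrinogen oxidase, lies on chromosome 16 (chr16:58670208-58680391, plus strand). It had a promoter peak in every library and nothing in its body. Promoter coverage was 654 and 738 bp in the Ser5P controls, 891 and 587 bp in the Ser5P KD libraries, 572 and 588 bp in the Ser2P controls and 948 and 876 bp in the Ser2P KD libraries. The Ser2P groups did not overlap, and the Ser5P groups did. The Ser2P difference was 16.6 percentage points (SE 4.19) and did not pass (limma adjusted p = 0.27). Its local background was the lowest of the set, at 2.4 to 2.6 times the usual one for Ser2P and 2.5 to 3.4 times for Ser5P, and folds reached 11.9 for Ser2P and 10.5 for Ser5P. Cpox is shown because its promoter holds the most GATA words of the 11 entries, with capitals as above (chr16:58669958-58670257, plus strand).
Cpox: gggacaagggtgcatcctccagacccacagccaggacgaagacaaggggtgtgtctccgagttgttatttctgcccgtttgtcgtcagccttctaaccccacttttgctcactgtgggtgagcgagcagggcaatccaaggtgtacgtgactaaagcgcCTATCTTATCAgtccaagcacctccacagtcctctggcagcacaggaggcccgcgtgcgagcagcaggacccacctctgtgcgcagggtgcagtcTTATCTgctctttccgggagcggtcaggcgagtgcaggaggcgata
The GATA words begin 91 and 86 bases before the start, sharing 1 base, and 4 bases after it. All 3 are on the opposite strand. Besides Cpox, GATA words were found at the Alas2 start and the downstream Uros start, and at none of the other entries. These 3 starts differed in their peaks: Cpox was marked in all 8 libraries, the downstream Uros start in the 4 controls and Alas2 in none.

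Ppox, protoporphyrinogen oxidase, lies on chromosome 1 (chr1:171276991-171281193, minus strand) and had the widest mean promoter coverage of the set for both antibodies. It was 999 and 1133 bp in the Ser5P controls, 1021 and 1094 bp in the Ser5P KD libraries, 998 and 961 bp in the Ser2P controls, and 999 and 971 bp in the Ser2P KD libraries. Covered bases of the 2 lines overlapped for both antibodies. Summit pileups were 69 to 84 for Ser5P and 32 to 82 for Ser2P, with Ser2P folds of 6.59 to 8.39. Ser5P folds did not overlap, at 9.22 and 9.41 (control) against 8.72 and 7.99 (KD). Nor did Ser5P pileups over the usual background of each library, at 135.8 and 131.5 (control) against 106.3 and 96.2 (KD). Ser2P values overlapped on both measures. Why the Ser5P values were lower in KD was not tested. The gene is 4.2 kb long and its body had no peak. Its downstream flank carried a peak in all 8 libraries at the start of B4galt3, 10.86 kb away.

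Fech, ferrochelatase, which inserts iron, lies on chromosome 18 (chr18:64456542-64489098, minus strand). The promoter peak was found in all 8 libraries with summits 0.06 to 0.09 kb before the 5′ end, but its coverage varied between libraries of 1 group: 252 and 790 bp in the Ser5P controls, 902 and 322 bp in the Ser5P KD libraries, 619 and 256 bp in the Ser2P controls, and 620 and 747 bp in the Ser2P KD libraries. As at Alad, the surroundings were high, at 12.9 to 14.1 times the usual background for Ser5P and 11.6 to 12.1 times for Ser2P, and folds were low, 3.63 to 5.61 and 4.33 to 4.69. A site near 9.9 to 10.2 kb was marked in 2 of 4 Ser5P libraries, control 1 and KD 2, and in 3 of 4 Ser2P libraries, all but control 1.

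**Figure D4:**
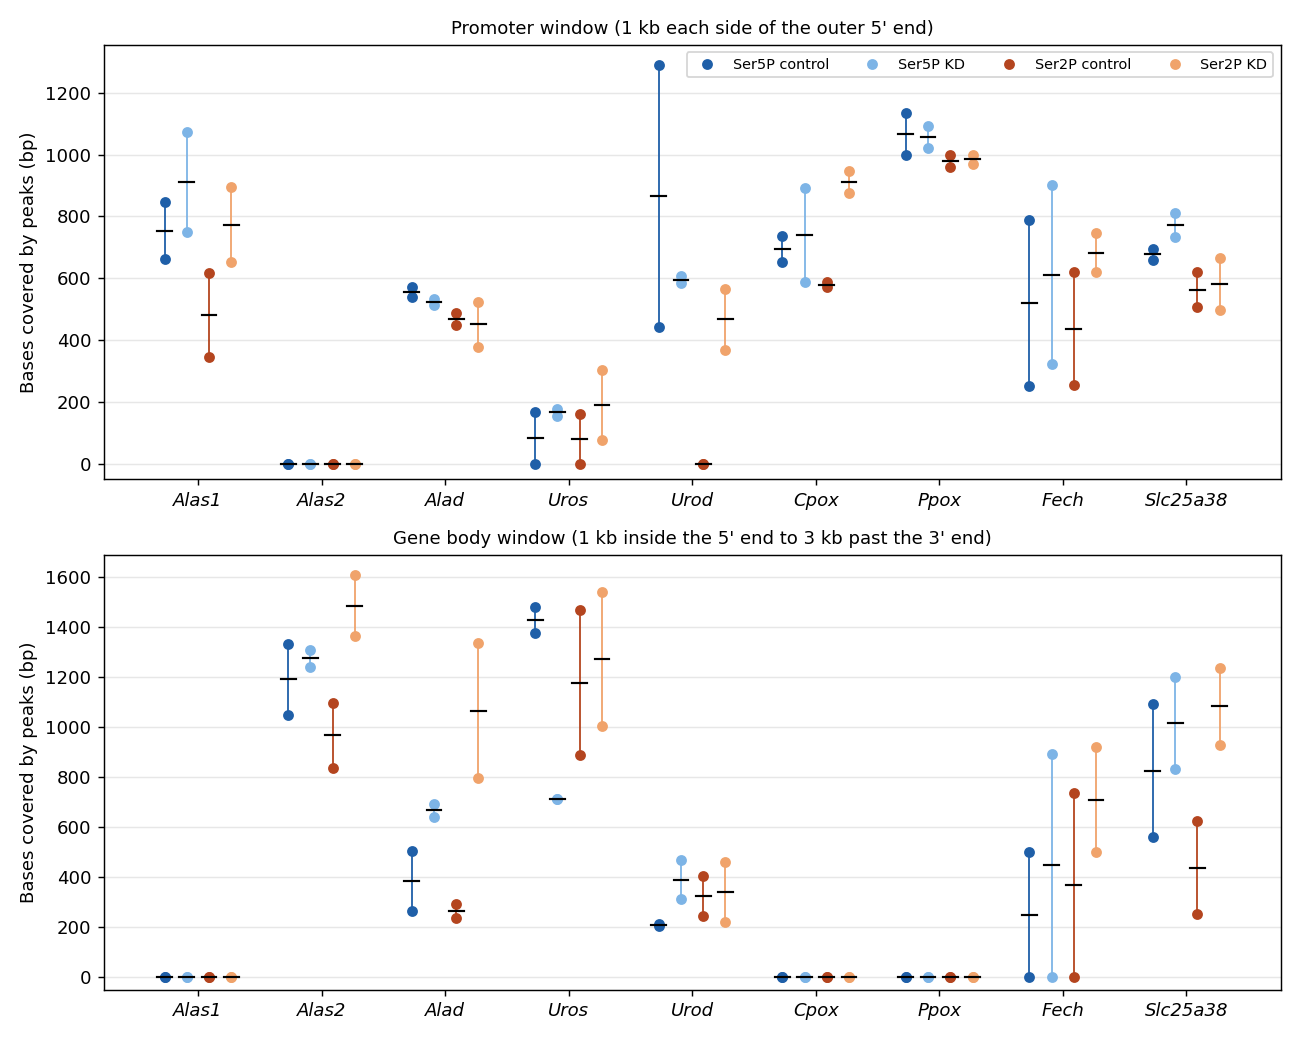
Bases covered by peaks in the promoter window (upper) and the gene body window (lower) of each gene. Points are single libraries, thin lines join the 2 libraries of a group and black bars are group means. Urod has 0 bp in both Ser2P controls at the promoter, and Alas1, Cpox and Ppox have 0 bp in the body throughout.

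Promoter coverage was compared between the antibodies with all 8 libraries. Mean Ser5P coverage exceeded mean Ser2P coverage at Alad, with 539.5 ± 24.4 against 460.2 ± 63.4 bp (SD, n = 4 per antibody; exact permutation p = 0.0571), and at Slc25a38, with 724.8 ± 64.8 against 572.5 ± 83.2 bp (exact permutation p = 0.0571). The same p was reached at Ppox, with 1061.8 ± 62.5 against 982.2 ± 19.2 bp, and at Urod, with 731.5 ± 379.9 against 234 ± 282 bp (exact permutation p = 0.0571 for each). The test was two-sided, its smallest possible value is 0.0286 and its p was not adjusted for the number of genes. It shuffled all 8 libraries without keeping control and KD apart, so the Ser2P gap between the lines at Urod entered it. Alas1 gave an exact permutation p of 0.229, Cpox 0.886, Uros 0.943 and Fech 1. In the fit across 10340 genes, 62 genes, 0.6%, were higher for Ser5P and 12, 0.116%, for Ser2P (limma, Benjamini-Hochberg adjusted p under 0.05), and none of the 8 haem genes fitted was among them. The closest were Slc25a38, 7.61 percentage points higher for Ser5P (SE 3.17, limma adjusted p = 0.39), and Urod, 24.9 points higher (SE 10.6, limma adjusted p = 0.4). The median over all genes fitted was 1.76 points, and −0.01 without Ser2P control 2, where 50 genes were higher for Ser5P and 38 for Ser2P. Dividing coverage by the library's median peak width turned that median to −3.02 points and the Ppox difference from 3.97 to −3.97 points. The Urod difference fell to 12.7 points without Ser5P control 2.

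Body window coverage overlapped between the antibodies at each of the 6 genes fitted. In the fit across 11369 genes 13 genes, 0.114%, were higher for Ser5P and 4, 0.0352%, for Ser2P (limma). The haem genes ranged from 0.86 percentage points higher for Ser2P at Alad (SE 1, limma adjusted p = 0.753) to 0.9 points higher for Ser5P at Slc25a38 (SE 1.06, limma adjusted p = 0.756). At Alas2 the means were 1234.2 ± 128.4 bp for Ser5P and 1227.5 ± 333.1 bp for Ser2P (SD, n = 4 per antibody; exact permutation p = 1).

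Control and KD were compared next. For Ser5P promoter coverage no gene of 9797 passed in either direction (limma, 0%), while 647 were higher and 216 lower in KD at an unadjusted p under 0.05. The 8 haem genes fitted ranged from 13.6 percentage points lower in KD at Urod (SE 15.7, limma adjusted p = 0.825) to 7.82 higher at Alas1 (SE 7.38, limma adjusted p = 0.775), around a median over all genes of 1.77 points. Without Ser5P control 1 the unadjusted counts were 543 and 437, and with coverage divided by peak width 410 and 365. Without Ser5P control 2, Urod was 7.57 points higher in KD, so that direction rests on 1 library. Dividing by peak width turned the median over all genes to −1.07 points and the Cpox value from 2.15 to −0.73.

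For Ser2P body coverage no gene of 10648 passed (limma, 0%), with 985 higher and 67 lower in KD at an unadjusted p under 0.05. The counts were 561 and 564 without Ser2P control 2, 561 and 184 with scaled pileups and 709 and 143 with coverage divided by peak width. The median over all genes was 0.59 points, and 0.26, 0.15 and 0.32 under those settings. The 6 haem genes fitted had positive differences, but Uros, Urod and Fech turned negative under some alternatives, down to −0.79, −1.62 and −0.08 points. Alad had 291 and 237 bp in control cells and 1336 and 799 bp in KD cells, a difference of 5 points (SE 1.37) that did not pass (limma adjusted p = 0.452). Alas2 had 1097 and 839 bp in control cells and 1610 and 1364 bp in KD cells, a difference of 2.06 points (SE 0.65, limma adjusted p = 0.494). Slc25a38 had 624 and 253 bp in control cells and 1238 and 931 bp in KD cells, a difference of 3.65 points (SE 1.12, limma adjusted p = 0.49). In these 3 genes the groups did not overlap, and both KD libraries were deeper and had wider peaks than both controls, whose part in the result was not tested beyond the alternatives run. At Alas2 the set of sites was the same in both lines, so the added bases were width of the same peaks. Ser2P folds at these sites went the other way. Proximal folds were 11.94 and 10.45 in control cells and 8.95 and 8.95 in KD cells. Distal folds were 11.84 and 9.72 in control cells and 8.69 and 6.85 in KD cells. The cause was not tested. In Ser2P body coverage Uros, Urod and Fech differed by 0.36, 0.23 and 0.99 points.

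The remaining windows gave no call with the filter on genes without peaks. For Ser2P promoters no gene of 10047 passed (limma, 0%), against 1427 higher and 43 lower in KD at an unadjusted p under 0.05, and the median over all genes was 7.35 points higher in KD. Without Ser2P control 2 the counts were 862 and 306 and the median 3.67 points, and with coverage divided by peak width 830 and 135 and 2.12 points. Alas1 was 14.6 points higher (SE 7.47, limma adjusted p = 0.451), and Alad 0.92 points lower (SE 4.8, limma adjusted p = 0.928). For Ser5P bodies no gene of 9883 passed (limma, 0%), with 418 higher and 351 lower in KD at an unadjusted p under 0.05. Whether the KD difference itself depended on the antibody was tested as an interaction, and no haem gene passed. At promoters 0 of 10340 genes passed in either direction (limma; 94 higher and 796 lower at an unadjusted p under 0.05). Without Ser2P control 2 these became 337 and 574. For bodies 1 gene, 0.0088%, was higher and 4, 0.0352%, were lower (limma). These body counts were unstable: 369 genes were lower without Ser2P KD 2, 215 without Ser2P KD 1 and 64 without Ser5P control 1, while 71 were higher without Ser2P control 2 and 40 without Ser5P KD 1. No haem gene was among the genes passing in any of these fits. Urod had an interaction of −37 points at its promoter (SE 17.8, limma adjusted p = 0.653) and Uros −3.08 points in its body (SE 1.36, limma adjusted p = 0.672).

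Peaks were also merged into regions and called by presence, control-only meaning a peak in both controls and neither KD library of an antibody. The windows of the 9 genes held 36 Ser5P regions, of which 16 were marked in all 4 libraries, as were 38.3% of all Ser5P regions. Among the 36, 2 were control-only, inside Uros, and 1 was KD-only, at the Mmp21 start in the downstream flank of Uros. The shares over all 37531 regions were 4.1 and 2.19%. Of 40 Ser2P regions, 16 were marked in all 4 libraries, as were 30% of all Ser2P regions. Of the 40, 1 was control-only, at Uros, and 6 were KD-only, where the shares over all 48140 regions were 1.59 and 5.07%. The 6 lay at Alad (4.16 to 4.57 kb), the Cpox downstream flank (15.35 to 16.21 kb), Slc25a38 (5.78 to 6.25 and 22.55 to 23.17 kb), the Urod promoter and the Mmp21 start near Uros. Those at Urod and Mmp21 remained when the Ser2P lists were scaled to the shallowest library, and the other 4 did not. These other 4 had Ser2P summit pileups of 10 to 38. Their KD-only call holds for Ser2P alone. Alad had a Ser5P peak in control 1 (summit pileup 24). The Cpox flank and the nearer Slc25a38 region each had a Ser5P peak in control 2 (8 and 25). Ser5P KD 2 had peaks at Alad and the Cpox flank (46 and 13), and Ser5P KD 1 at the further Slc25a38 region (29).

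Genes that handle haem or feed the pathway gave a second view, in a list of 27 that holds porphyrin and iron transporters, iron-sulphur assembly genes, haem breakdown enzymes and haem-sensing regulators. For Ser5P, 24 of 27 had a promoter peak in all 4 libraries, beside 36% of all genes, and the same number did for Ser2P. The transporters without a Ser5P promoter peak in any library were Slc25a37, the mitochondrial iron importer known as mitoferrin, and Flvcr2. No gene of the list passed any of the limma fits with the filter on genes without peaks, and the smallest limma adjusted p was 0.0536, in the body interaction. For Ser2P bodies 22 of the 27 were fitted, with a median difference of 0.9 points beside 0.59 over all genes. For Ser5P promoters 25 were fitted, with a median of 7.1 points beside 1.77. These sets are unlike, since 24 of the 27 had a promoter peak in all 4 libraries and a fitted gene needed 1. Dividing by peak width turned the median over all genes to −1.07 points, and that of the list was not computed. By presence, Slc25a39, Shmt2, Blvra and Fam210b had Ser2P coverage of the body window in the KD libraries only (2.25% of all genes). Hmox2, a haem oxygenase, had it in controls only (0.548%). Such coverage can come from the edge of a promoter peak or from a neighbour, and its source was not traced. Slc25a39, a mitochondrial glutathione carrier, had 388 and 345 bp covered in the KD libraries. Shmt2, which makes glycine in the mitochondrion, had 243 and 133 bp. Blvra, biliverdin reductase, had 275 and 595 bp, and Fam210b, a mitochondrial protein of erythroid cells, had 659 and 326 bp. Flvcr1, a haem and choline transporter, had Ser5P coverage of the body window in KD only, with 354 and 339 bp (1.08% of all genes, beside 1.44% in controls only). Hmox2 had 349 and 236 bp in the controls. Of these 6 calls, 5 were in the KD libraries, which were deeper and had wider peaks. The part of depth and peak width in them was not tested.

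Genes whose pattern was nearest to those of the 2 first enzymes were found by Euclidean distance over 8 values, the covered share of the promoter in the 4 Ser5P libraries and of the body in the 4 Ser2P libraries. Nearest to Alas2 were Usp44 (distance 0.0037), Mgat4e (0.0062) and Lhfpl4 (0.0071), each with 0% Ser5P promoter coverage and 2.96 to 6.76% Ser2P body coverage. Within 0.05 of Alas2 lay 636 genes. Distance is in absolute covered share, so genes with little coverage, as at Alas2, lie close together. Counts within 0.05 therefore do not compare how common the patterns of Alas2 and Alas1 are. Nearest to Alas1 were Usp27x (0.0337), Ube2n (0.0341) and Alms1 (0.0447), the 3 genes within 0.05. Their Ser5P promoters were covered to 32.4 to 54%, and their Ser2P bodies to at most 0.71%.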

How the data were processed

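The data were 8 lists of CUT&Tag peaks on GRCm38/mm10, 1 per library. MACS2 2.2.7.1 is the peak caller among the tools named per the submitters' processing notes, with Bowtie2 2.3.5, Picard 2.21.4, SAMtools 1.9, cutadapt 2.7 and deepTools 3.3.1. Settings and any control library: not given in the sources used here. Each peak came with a deposited score for display, the authors' fold (a ratio of summit to local background), its −log10 p and −log10 q (deposited p-value and q-value), and where the summit lies. The lowest −log10 q of a list was 1.3 to 1.31, and peaks off the main chromosomes (24 to 30 a library) were dropped.

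Summit pileup and local background were solved from the fold and p of each peak (tolerance 0.001 on −log10 p), with a solution for over 99.9% of peaks in every library. Read totals were not used here. Gene intervals and promoter sequences came from RefSeq for GRCm38.p6. Strand came from the promoter table for 17491 genes and by symbol from GENCODE vM1 for 4041, Fech included, and 351 genes without strand were left out. The NCBIM37 genome did not match the files and was not used.

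Covered shares of promoter windows (1000 bp each side of the outer 5′ end) and body windows were tested with limma 3.58.1 in R 4.3.3 over all genes with a peak in at least 1 library of the fit, with Benjamini-Hochberg adjustment at 0.05. Single genes had two-sided exact permutation tests, whose smallest p is 0.0286 for 4 against 4 and 0.333 for 2 against 2. Nothing in the labels ties replicates to separate cultures, so a p-value here reflects library-to-library spread that may be technical. Scripts ran in Python 3.11.15 and were tested on simulated data.

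The genes, lists and rules were chosen with earlier results of these data known. Named were all 9 genes, the called or unmarked genes of the 27, genes starting at flanking peaks, and the 3 nearest genes by pattern. The alternatives tried were a stricter −log10 q (5 or more), lists cut to equal length, pileups scaled to the shallowest library, other windows and overlaps, scaling by peak width, no filter, a replicate block and leaving out each library. Counting all RefSeq starts, the regions joint to both antibodies, the KD fits of Ser2P promoters and Ser5P bodies, and the alternatives for the interaction were chosen after seeing the data. Replicate numbers were not shown to pair the libraries: deviations from group means of control and KD gave r = 0.0379 for Ser5P promoters and 0.0906 for Ser2P bodies.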

Additional observations from a re-analysis of the deposited data

How the results depend on the processing

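No haem synthesis gene passed limma in any fit, under any alternative run, with 1 exception: Uros passed for Ser5P body coverage with no filter (−2.72 points, limma adjusted p = 0.0152, against 0.284 with the filter). Fits with no filter take in genes without a covered base, which have no spread, so a pass there is weak evidence. Promoter peaks in all 4 libraries numbered 7 (Ser5P) and 6 (Ser2P) of 9 without each library in turn, and 5 to 8 under the other alternatives. Calls of regions in these genes' windows were less stable. With a −log10 q of at least 5, Ser5P gave 0 control-only and 0 KD-only, Ser2P 2 KD-only, and both antibodies jointly 0 and 0. With equal numbers of peaks, Ser5P gave 1 and 0, Ser2P 2 KD-only, and both jointly 0 and 0. Scaled to the shallowest library, Ser2P gave 2 control-only (the added one a Usp21 start near Ppox) and 2 KD-only, and both jointly 0 KD-only. Leaving out each library gave 3 to 5 control-only and 1 to 4 KD-only for Ser5P, 1 to 3 and 7 to 11 for Ser2P, and 1 and 1 to 2 jointly.

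Over all genes, Ser2P body coverage gave 166 higher and 10 lower in KD with no filter, and 4 and 1 with the window ending at the 3′ end; leaving out each library gave 0 in each direction for all 4 KD fits. Ser5P body coverage gave 277 higher and 173 lower with no filter, 1 of them a haem gene, and 1 and 1 with equal numbers of peaks. Ser2P promoter coverage gave 1 higher with no filter. For promoters between antibodies, genes higher for Ser2P numbered 43 with width scaling, 7 with no filter and 20 in a 500 bp window. Leaving out each library gave 22 to 50 higher for Ser5P and 0 to 38 for Ser2P, the 38 without Ser2P control 2. For bodies, genes higher for Ser5P numbered 21 (−log10 q of at least 5), 27 (equal numbers), 25 (scaled pileups), 7 (no filter) and 5 (window to the 3′ end). Those higher for Ser2P numbered 8 (equal numbers) and 7 (width scaling). Leaving out each library gave 4 to 20 and 0 to 58, the 58 again without Ser2P control 2. The promoter interaction gave 8 higher and 45 lower with no filter. The body interaction, 1 higher and 4 lower, gave 8 and 31 (−log10 q of at least 5), 15 and 18 (equal numbers), 9 and 11 (scaled pileups), 3 and 12 (width scaling) and 17 and 61 (no filter). Leaving out each library gave 1 to 71 higher there, the 71 without Ser2P control 2, and 5 to 369 lower, the 369 without Ser2P KD 2. Causes were not tested. Fits that leave a group with 1 library assume that it varies like the others.

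With the replicate number as a block, calls between antibodies were 39 for Ser5P and 0 for Ser2P at promoters, 8 and 1 in bodies, and 0 in the 4 KD fits and both interactions. Same-numbered libraries gave r of −0.0494 to 0.0393 between groups at promoters and −0.1246 to 0.0939 in bodies, which with 2 numbers does not show that numbers pair the libraries. Depth limits presence calls: a weak peak in one library may miss the threshold of another.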
